A study of Mus musculus with 8 samples.

Results

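Neat1 and Malat1 are long non-coding RNAs that stay in the nucleus and are transcribed from neighbouring genes on mouse chromosome 19. Their m6A peaks were taken from the 4 peak lists of the study as every peak on the minus strand that lay inside either gene by the lists' exon annotation, their gene column or the gene span. The 3 criteria picked the same 25 peaks, of 20732 in the 4 lists. Of these, 21 lay on Neat1 and 4 on Malat1. N6-methyladenosine (m6A) is a methyl mark on internal adenosines of RNA, and it was mapped in RAW264.7, a mouse macrophage cell line, by pulling down short RNA fragments with an anti-m6A antibody and sequencing them (MeRIP-seq). The control cells had no treatment, and the other 3 cultures received TBP, TCP or TIP, each at 100 µM for 24 h. The labels give these compounds by abbreviation only. Each condition had 1 immunoprecipitated library and 1 input library. The values are the authors' peaks of the immunoprecipitated libraries, with 4432 in the control list, 6285 in the TBP list, 6981 in the TCP list and 3034 in the TIP list. The input libraries were not analysed here. There are no replicates, so the conditions are described without a test. The files hold peaks without read counts, and their depth is therefore unknown. Where 4 peak numbers are given for a gene, they stand in the order untreated, TBP, TCP, TIP.

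Neat1 is the scaffold of paraspeckles, nuclear bodies that form where RNA-binding proteins such as Sfpq and Nono coat the RNA. It is made as a short and a long isoform that share their 5′ portion. Malat1 collects in nuclear speckles, which store splicing factors, and its 3′ end is cut to release a small cytoplasmic RNA. The m6A mark is written in the nucleus by the Mettl3 and Mettl14 methyltransferase with its partners, and it can open RNA hairpins so that nuclear proteins bind, a mechanism known from human MALAT1. Positions below are on GRCm38 (mm10) and, along each RNA, in nucleotides from the 5′ end of the full-length transcript in the lists. For Neat1 (ENSMUSG00000092274) this transcript has 1 exon of 20771 nt, from 5824708 to 5845478. For Malat1 (ENSMUSG00000092341) it has 1 exon of 6983 nt, from 5795690 to 5802672. All 25 peaks were annotated to exon 1 of these transcripts, and no list had a peak on the plus strand inside either gene. Peak borders of both genes fell on a grid of 25 nt, so a shift of 25 nt is the smallest that the lists can show.

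Neat1 carried peaks in every list, with 5 in control, 7 after TBP, 3 after TCP and 6 after TIP. All 21 lay between nt 47 and nt 2971, the first 14.3% of the RNA. The remaining 17800 nt, 85.7% of the transcript, held no peak in any list. The lists do not tell the isoforms apart, and how much RNA from the long isoform was sequenced was not analysed here. The peaks covered 300 nt of Neat1 in control, 350 after TBP, 175 after TCP and 475 after TIP. TIP thus had the shortest list of the series and the longest covered stretch of Neat1, whereas TCP had the longest list and the shortest covered stretch.

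In control, TBP and TCP the strongest signal on Neat1 sat in the same stretch, within nt 1422 to 1621. Rank here means the place of a peak in its own list by the authors' score, with 1 the highest. The score has no stated scale, and scores of different lists are not set against one another. In control, the peak at nt 1447 to 1596 (5843883 to 5844032) was 150 nt wide, had a score of 38.0 and shared rank 4 with another peak. In TBP, the peak at nt 1422 to 1571 (5843908 to 5844057) was also 150 nt wide, with a score of 37.3 and rank 5, shared with another peak. In TCP, the peak at nt 1497 to 1621 (5843858 to 5843982) spanned 125 nt and shared rank 1 with 2 other peaks at a score of 40.4. The 3 peaks were within 75 nt of one another at their 5′ borders, and a width of 150 nt or more was reached by 5.23% to 7.48% of the peaks of a list.

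In TIP the same stretch was covered by a pair of peaks with a gap between them. The first lay at nt 1447 to 1496 (5843983 to 5844032), with a score of 14.6 and rank 8. The second lay at nt 1547 to 1696 (5843783 to 5843932), with a score of 12.4 and rank 11. The 50 nt between them, nt 1497 to 1546 (5843933 to 5843982), were covered in control, TBP and TCP and not in TIP. TBP had a second, 25-nt peak here, at nt 1672 to 1696, with rank 446. Merged by overlap of at least 1 nt, these 6 peaks formed a site of 275 nt, nt 1422 to 1696, and it was the single Neat1 site with a peak in all 4 lists. Only 1 window of 25 nt, nt 1547 to 1571 (5843908 to 5843932), was covered by all 4.

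A further site, at nt 2047 to 2171 (5843308 to 5843432), had a peak in control, TBP and TIP. Its 3′ border was the same in all 3, while the 5′ border differed. The control peak was 75 nt wide, with a score of 20.7 and rank 34. The TBP peak was 25 nt wide and had rank 393, with a score of 11.0. The TIP peak was 125 nt wide and had rank 1, the highest score of the TIP list at 17.6. TCP had no peak there, and its nearest peak, at nt 2347 to 2371, lay 175 nt away at the lowest score of that list. The order of the 2 sites thus differed between lists: the site at nt 1422 to 1696 ranked above the site at nt 2047 to 2171 in control and TBP, and below it in TIP.

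A weaker site at nt 972 to 1021 (5844458 to 5844507) was shared by control, with rank 3291, and TBP, with rank 1393. The other 10 Neat1 peaks each stood alone in 1 list. Of these, 8 were 25 nt wide, the narrowest width in the lists, against 3 of the 11 peaks at shared sites. Over whole lists, 34.9% (TIP) to 37.2% (TCP) of the peaks had this width. A wider peak meets another more readily, so merging by overlap favours such a contrast, and it was not tested. At the 5′ end, the control peak at nt 47 to 71 (rank 470) and the TIP peak at nt 72 to 171 (1 of 301 peaks tied at rank 17) touched without overlapping. The control peak at nt 1772 to 1796 had rank 116 and no partner in any compound list. TBP alone had a peak at nt 747 to 771, at the lowest score of its list, and at nt 1972 to 1996 (rank 888). TCP alone had the peak at nt 1197 to 1221 (rank 4645). Towards the 3′ end of the marked stretch, TBP had a peak at nt 2872 to 2921 (rank 393), and TIP had 1 on either side of it, at nt 2847 to 2871 (rank 2269) and nt 2947 to 2971 (rank 2110). Neither of these lists overlapped the other there.

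**Figure D1:**
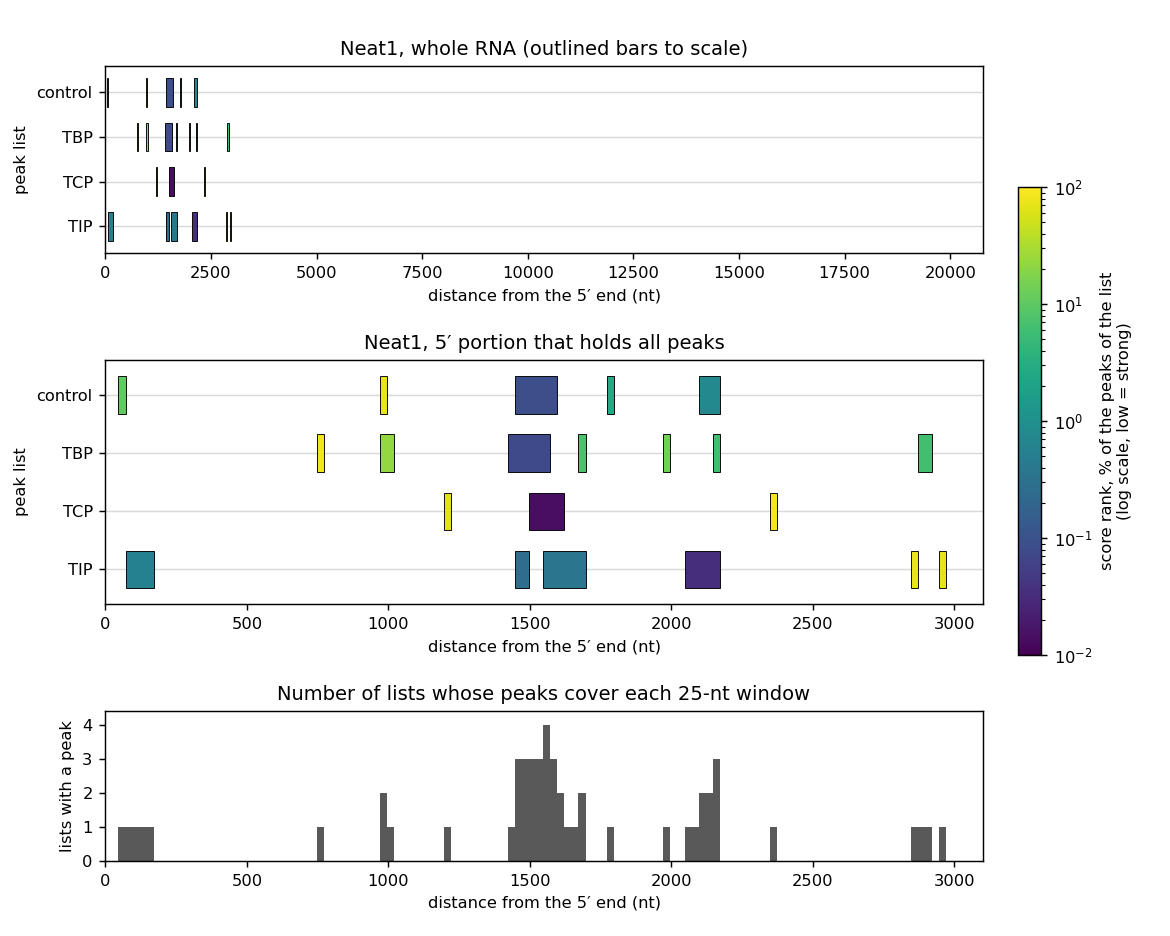
Peaks along Neat1 in the 4 lists, over the whole 20771 nt (top) and the 5′ portion (middle), with the x axis in nt from the 5′ end and colour giving the score rank as a percentage of the list, and the number of lists that cover each 25-nt window (bottom). All 21 peaks lie before nt 2971, and a single window, nt 1547 to 1571, is covered by all 4 lists.

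In all, the Neat1 peaks formed 13 sites. Of these, 1 had a peak in 4 lists, 1 in 3, 1 in 2 and 10 in 1. Over all peaks of the series merged in the same way, 39.4% of 11753 sites (95% interval 38.5 to 40.3) had a peak in 2 or more lists and 10.6% (10.0 to 11.2) in all 4. These intervals, like the others given here, are exact Clopper-Pearson intervals and cover counting error only. The 3 of 13 on Neat1 rest on too few sites to be set apart from the first of these shares. Window by window, 32 windows of Neat1 were covered in at least 1 list, of which 20 were covered in 1 list, 5 in 2, 6 in 3 and 1 in 4.

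Against control, the strongest control peak on Neat1 overlapped a peak in each compound list, and the weaker peaks varied. Of the 5 control peaks, 2 had no overlapping peak in TBP, 4 had none in TCP and 3 had none in TIP. Over all control peaks, 42.7% had no overlapping TBP peak, 44.3% no TCP peak and 64.7% no TIP peak. In the other direction, 4 of 7 TBP peaks, 2 of 3 TCP peaks and 3 of 6 TIP peaks on Neat1 did not overlap a control peak, where the share over the whole list was 60%, 64.6% and 48.2%. With 3 to 7 peaks a list, these counts are too small to be set apart from the share over the list. The 3 comparisons share the control library.

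Dose and time were equal for the 3 compounds, so their Neat1 peaks can be set side by side in 3 pairs, without a test. TBP covered 14 windows of 25 nt, TCP 7 and TIP 19. TBP and TCP had 3 windows in common, 3 of 14 for TBP and 3 of 7 for TCP. TBP and TIP had 5 in common, 5 of 14 and 5 of 19. TCP and TIP had 3 in common, 3 of 7 and 3 of 19. What separates the compounds in structure is not given in the labels.

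Malat1 had 3 peaks in control, 0 after TBP, 0 after TCP and 1 after TIP. The strongest control peak, at nt 3409 to 3458 (5799215 to 5799264), was 50 nt wide, with a score of 19.8 and rank 43. The second, at nt 1034 to 1058 (5801615 to 5801639), had a score of 17.8 and rank 70. The last, at nt 5259 to 5283 (5797390 to 5797414), had a score of 10.7 and rank 346. The control peaks were thus spread over the RNA, unlike those of Neat1, and all of them lay in the leading 10% of the control list.

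The TIP peak on Malat1 lay at nt 1409 to 1483 (5801190 to 5801264) and was 75 nt wide. It had a score of 16.6 and rank 4 of 3034, with no tie. It did not overlap a control peak. The nearest one, at nt 1034 to 1058, was 350 nt away, and the others were 1925 and 3775 nt away. Malat1 therefore counts as having a peak in both control and TIP while the lists hold no position on it in common. Of 1458 genes with peaks in both of these lists, 24.5% (22.3 to 26.8) likewise had no overlapping pair.

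**Figure D2:**
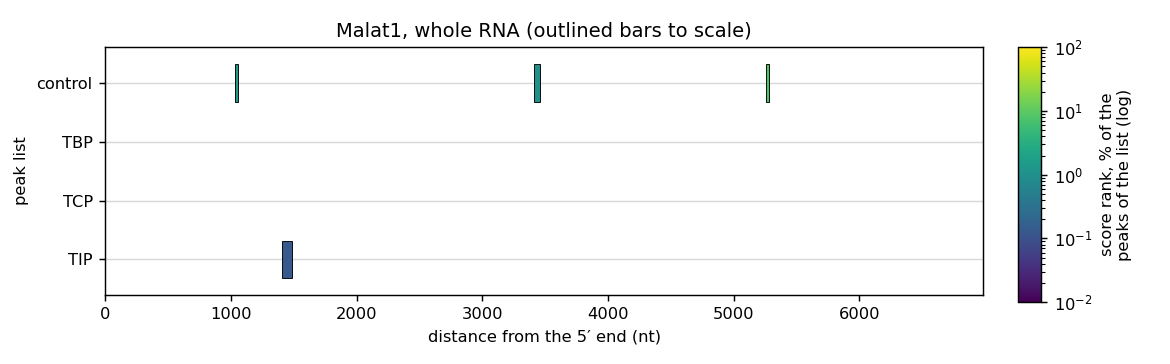
Peaks along Malat1 in the 4 lists, with the x axis in nt from the 5′ end of the 6983-nt RNA and colour giving the score rank as a percentage of the list. The 3 control peaks and the TIP peak at nt 1409 to 1483 share no position, and the TBP and TCP lanes are empty.

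The TBP and TCP lists were longer than the control list, and neither held a Malat1 peak. All 3 control peaks of Malat1 lacked an overlapping peak in each of the compound lists. Among the 351 control peaks that ranked at least as high as the lowest of the 3, 14% (10.5 to 18.0) had no overlapping TBP peak, 18.8% (14.9 to 23.3) no TCP peak and 30.2% (25.4 to 35.3) no TIP peak. By gene, 17.3% of 2475 genes with a control peak had no TBP peak, 16.1% had no TCP peak and 41.1% had no TIP peak. Among the 426 genes with 3 or more control peaks, 5 had none in TBP, 1.17% (0.382 to 2.72), and 8 had none in TCP, 1.88% (0.814 to 3.67). Malat1 and Atpif1, which encodes an inhibitor of the mitochondrial ATP synthase, were the 2 without a peak in both TBP and TCP. Of this pair, Malat1 had a TIP peak and Atpif1 had none. The lists come from whole cultures and hold no RNA level. A change in the amount of Malat1, in its methylation or in the share of cells carrying it therefore cannot be told apart. Neither the level of the RNA, the depth of the libraries nor the spread between cultures was tested for its part in the missing peaks.

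Of the 25 peaks, 16 lay in the leading 10% of their list. These were 3 of 5 Neat1 peaks in control, 4 of 7 after TBP, 1 of 3 after TCP and 4 of 6 after TIP, and all 4 Malat1 peaks. Of all 2140 peaks in the leading 10% of a list, 3.04% (2.35 to 3.86) were at a site of 1 list, against 38% of the peaks below. Of the 12 leading Neat1 peaks, 3 were at such a site, and of the 4 leading Malat1 peaks, all 4. These were the control peak at nt 1772, the TBP peak at nt 2872 and the TIP peak at nt 72 on Neat1, and the 3 control peaks and the TIP peak on Malat1. Of 64 such peaks placed in a gene, spread over 52 genes, 7 were on these RNAs. Malat1 had the most of any gene with 4, followed by Neat1 and Ncl, the gene of nucleolin, with 3 each. The TIP peak at nt 72 is inside the limit because its 301 tied peaks share the best rank, and their last rank lies at 10.4% of the list. With ties at their last rank, an alternative added after seeing the data, 15 of the 25 peaks were leading. Neat1 then had 2 at a site of 1 list, Malat1 4 and Ncl 3, and the share over all leading peaks was 3.2%. The limit of 10% was chosen after the ranks had been seen, and the members were picked with their ranks known, so the counts are a description.

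**Figure D3:**
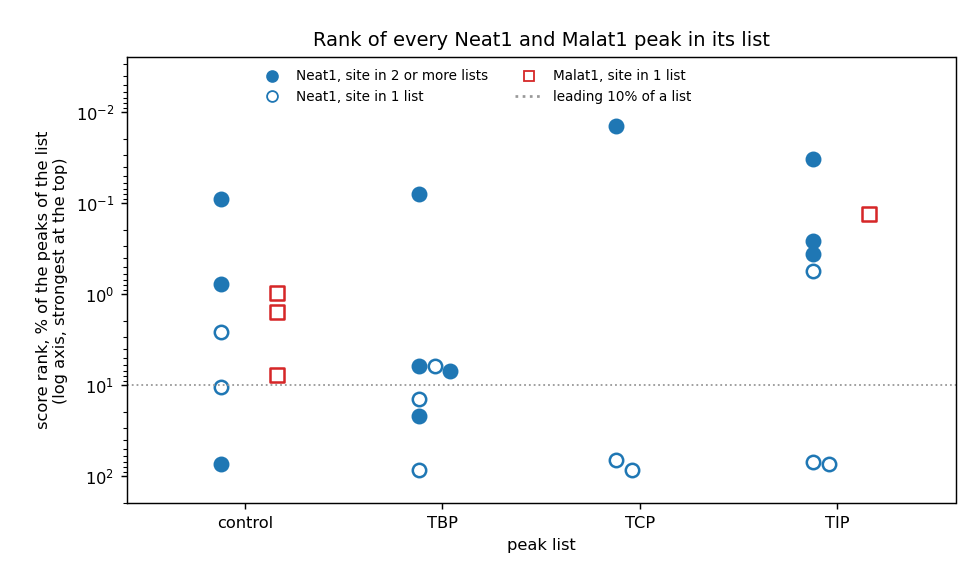
Score rank of each Neat1 peak (circles) and Malat1 peak (squares) in its list, as a percentage of the list on a log axis with the strongest at the top; filled symbols are at sites with a peak in 2 or more lists and open symbols at sites of 1 list. The strongest peak of Neat1 holds rank 4 in control and 5 after TBP, each as 1 of 2 tied peaks. It holds rank 1 after TCP, as 1 of 3 tied peaks, and rank 1 after TIP without a tie. All 4 Malat1 squares are open and above the 10% line. Points of nearly equal rank are set apart sideways.

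Among genes ordered by their strongest peak, Neat1 was at place 4 in control and TBP and at place 1 in TCP and TIP. Ties share the best place. The strongest Neat1 peak was 1 of 2 tied peaks in control and in TBP, 1 of 3 in TCP and untied in TIP. Malat1 was at place 34 in control and 4 in TIP. By number of peaks, 115 of 2475 control genes (4.65%) had at least as many as Neat1, 89 of 3126 in TBP (2.85%), 796 of 3394 in TCP (23.5%) and 42 of 1788 in TIP (2.35%). These counts take no account of transcript length, which is 20771 nt for Neat1, and are not densities. The genes most like Neat1 among the 1280 with a peak in all 4 lists, by summed difference in peak number, were Purb, Tubb5 and Klhl9, each with a difference of 3, and Slc5a3 and Cand1 with 4. Purb, a single-stranded nucleic acid-binding protein, and Tubb5, a beta-tubulin, each had 5, 5, 4 and 6 peaks. Klhl9, an adaptor of a cullin ubiquitin ligase, had 5, 7, 6 and 6. Slc5a3, a myo-inositol transporter, had 5, 7, 6 and 5, and Cand1, a cullin exchange factor, had 5, 5, 3 and 4.

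For Malat1, 30 genes including itself had peaks in control and TIP alone. Of the 5 nearest, Rbm38, an RNA-binding protein, and Marf1, a regulator of RNA decay known from oocytes, had 2 peaks in control and 1 in TIP, a difference of 1. Rrm2, a ribonucleotide reductase subunit, Stag2, a cohesin subunit, and Ubxn4 had 1 in each. Their best control peaks were at 29.5% to 58.9% of the list, against 0.970% for Malat1.

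Long non-coding RNAs made up a small part of the lists. By the RefSeq gene type, 63 long non-coding genes had a peak in any list and 9 had one in all 4, 14.3%, against 29.7% of all 4309 genes with a peak. Of a list of 42 other long non-coding RNAs, 9 had a peak, a count given without a background share over all annotated genes. Tug1, which is found in nucleus and cytoplasm, had 7, 8, 6 and 4 peaks, and Oip5os1, the mouse Cyrano RNA, had 2, 2, 2 and 1. Kcnq1ot1, the antisense RNA of an imprinted cluster, had 1, 3, 3 and 0. Gas5 and Pvt1 each had 1, 1, 1 and 0, and 1110038B12Rik had 1, 1, 0 and 0. Zfas1 had 1, 0, 1 and 0, and Ftx and Lncpint had 1 in TBP alone. In TIP, 2 of the 9 had a peak, 22.2%, against 41.5% of all 4309 genes with a peak in any list. In the other 3 lists, in the same order, it was 7, 8 and 6 of the 9, against 57.4%, 72.5% and 78.8% of all genes. Neat1 with 6 peaks had the most of any long non-coding gene in TIP, and Tug1 had the most in the other 3 lists.

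**Figure D4:**
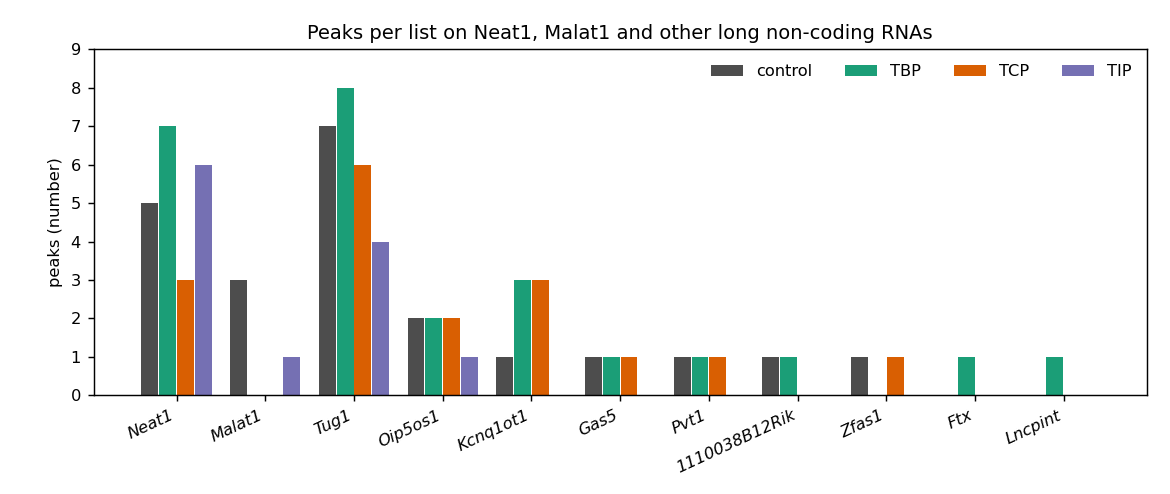
Number of peaks in each list on Neat1, Malat1 and the 9 other long non-coding RNAs of the list with a peak, with the bars of a gene in the order control, TBP, TCP and TIP. Neat1 has 6 peaks in TIP, where Tug1 has 4 and Oip5os1 1, and Malat1 has none in TBP and TCP.

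Transcripts of paraspeckle and nuclear speckle proteins also carried peaks. Of 29 paraspeckle protein genes, 19 had a peak in any list: 10 in control, 13 after TBP, 15 after TCP and 8 after TIP. As shares of the 19 these were 52.6%, 68.4%, 78.9% and 42.1%, near the shares over all genes with a peak. The latter were 57.4%, 72.5%, 78.8% and 41.5%. Of these 19, 4 had one in all 4 lists (21.1%, against 29.7% of all genes with a peak). The share of all annotated genes with a peak in any list is not given here. The 19 of 29, and such counts for the other gene lists, therefore stand without a background. Sfpq, which binds Neat1 as a dimer with Nono, had 6, 7, 6 and 7 peaks. Matr3, a nuclear matrix protein, had 3, 5, 4 and 2, Tardbp (TDP-43) had 3, 3, 4 and 3, and Hnrnph1 had 2, 4, 4 and 1. Cpsf6, which takes part in choosing poly(A) sites, had 2, 3, 1 and 0, and Dazap1 had 0, 1, 2 and 1. Nono itself, named here after its values were seen, had 0, 1, 1 and 0.

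Of 31 nuclear speckle protein genes, 22 had a peak, with 15, 18, 20 and 9 in the 4 lists and 7 in all of them (31.8%, against 29.7%). By list the shares of the 22 were 68.2%, 81.8%, 90.9% and 40.9%. Over all genes with a peak they were 57.4%, 72.5%, 78.8% and 41.5%, and the difference was not tested. Son, a core scaffold of the speckles, had 15, 22, 11 and 10 peaks, and Srrm2, its other core scaffold, had 10, 9, 9 and 8. Rbm25 had 4, 3, 6 and 4, Bclaf1 had 2, 1, 4 and 3, Pnn had 1, 2, 5 and 2, and the splicing factor Srsf1 had 1, 1, 2 and 1. Of 14 nuclear m6A factors, 10 had a peak and 7 of these had one in every list (70%, against 29.7% of all genes with a peak). That share rests on 10 genes and was not tested. Rbm15, which guides the methyltransferase to its targets, had 5, 8, 9 and 3 peaks, and Virma, the scaffold of that complex, had 2, 4, 5 and 2. Zc3h13 had 2, 3, 2 and 2, and Wtap had 1, 2, 3 and 1. The nuclear reader Ythdc1 had 2, 3, 1 and 1, and Hnrnpa2b1 had 2, 2, 1 and 2. Of the 10 paraspeckle genes with a control peak, 3 had none in TBP, 1 none in TCP and 4 none in TIP. Of the 15 such speckle genes it was 2, 2 and 8, and of the 9 m6A factors 1, 1 and 2. Over all genes with a control peak the shares were 17.3%, 16.1% and 41.1%, as given above.

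The cell type label was checked against marker genes. Of 12 macrophage markers, 9 had a peak in any list, led by Mpeg1 with 8, 10, 10 and 11, Cd14 with 7, 7, 5 and 2 and Csf1r with 4, 4, 5 and 4. None of the lists held a peak on the 20 markers of other cells. A gene without a peak may still be expressed.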

How the data were processed

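Libraries of short RNA fragments were made after m6A immunoprecipitation, per the labels' protocols. Among the tools in the submitters' processing notes, given there without roles, are HISAT2 2.1.0, ChIPseeker 1.26 and HOMER 4.11. The build is mm10 (GRCm38). Which program called the peaks, at what limit and with what use of the inputs is not given in the sources used here. The authors deposited 1 list per immunoprecipitated library, with a score per peak whose scale is not stated, and, per the file headers, the width and the distance to a transcript start in bp. The score takes 223, 253, 214 and 44 distinct values in control, TBP, TCP and TIP.

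Peaks were ranked within each list with pandas 2.3.3 (Python 3.11.15), ties sharing the best rank. Peaks overlapping by at least 1 bp on a strand were merged to sites, a step tested on simulated peaks. For gene counts, 98.6% of peaks were placed in the gene holding them by exon annotation (45.3%), the nearest gene (37.6%) or a RefSeq gene span on GRCm38.p6 (15.7%), without small RNA genes. Genes named besides the members are the 5 with the same lists and the nearest peak numbers, and up to 6 per gene list. Members, lists and rules were chosen with earlier results of these data known. The share of leading peaks, the comparison at matched control rank and the genes with 3 or more control peaks were chosen after the lists were seen. No sequence is shown, since no genome was used here.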

Additional observations from a re-analysis of the deposited data

How the results depend on the processing

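Of 80 recomputed values, 74 stayed within 1.5 times the reported count or, for ranks, within its counting interval. Counting either strand, taking the nearest-gene column, leaving out peaks spanning over 500 bp and asking for an overlap of 50% of both peaks moved none of their values beyond that. For the peak counts, the first 3 of these could change nothing. No list had a peak on the other strand inside either gene, and the gene column picked the same peaks. The widest peak on either RNA was 150 nt. Each of these settings gave 8 of the 80 values as peak counts, and those values say nothing on stability. On Malat1 the overlap of 50% could change nothing either, because none of its peaks overlap, and its values there likewise say nothing on stability. On Neat1 the overlap of 50% gave 16 sites instead of 13. Control peaks without an overlapping peak were then 3 instead of 2 for TBP, 4 as before for TCP and 4 instead of 3 for TIP. Neat1 had 1 TCP peak instead of 3 when each list was limited to scores from its median up, and also 1 with all lists reduced to the length of the TIP list, where ties left 3034 to 3290 peaks a list. Neat1 had 8 sites instead of 13 when a gap of up to 100 bp was allowed, and 8 with scores from the median up. With the gap, 5 Neat1 sites instead of 3 had a peak in 2 or more lists. Malat1 was at place 34 among genes in control, against rank 43 among peaks; fewer features are ranked there. For the 0 Malat1 peaks in TBP and TCP these alternatives say nothing on stability, since most of them can only remove peaks. No paired analysis was possible because each condition has 1 library and no result comes from a test. With 1 library per condition, nothing here measures the spread between cultures, and without read counts a missing peak gives no upper limit on methylation.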

Other observations

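Besides Neat1, Tug1 and Oip5os1, 6 long non-coding genes had a peak in all 4 lists. Gm17484 had 3 peaks in control and 4 in each of TBP, TCP and TIP, and 4930470G03Rik had 2 in every list. D030028A08Rik, F730043M19Rik, Gm12992 and Gm38431 had 1 in every list. AI662270 had 2 peaks in control, 0 after TBP, 2 after TCP and 2 after TIP, and so lacked a TBP peak like Malat1. Among the 26 long non-coding genes with a control peak, this also held for Zfas1, Gm44505, Gm52824, 4732471J01Rik, AI506816 and F830208F22Rik. Each of these had 1 control peak. Over all genes with a control peak, 17.3% had no TBP peak. Gm4793 had 0, 3, 4 and 0 in the order control, TBP, TCP and TIP. These genes were named after their values were seen.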
